A study of Mus musculus with 35 samples.

Results

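The genes described here are 33 mouse genes that carry glucose from the cell surface to pyruvate, lactate and the pyruvate dehydrogenase gate. They were taken by symbol from every deposited count table, which gave 34 rows, because Aldoa has a further, nearly silent identifier (ENSMUSG00000114515), out of 55487 genes in all. The study knocked down the transcript of IAMP (4930523C07Rik), a micropeptide gene, with either of 2 independent siRNAs in primary cardiac fibroblasts (CFs) from adult mice of 8 weeks, and also disrupted the gene in mice. The 27 CF libraries form 3 tables, untreated, IL-17 and TGF-β, each with 3 Scrambled (si-NC), 3 siR-1 (si-IAMP-1) and 3 siR-2 (si-IAMP-2) libraries. The 8 heart libraries come from C57BL/6 mice of 8 weeks, 4 heterozygous (Het) controls and 4 homozygous IAMP-KO animals, all carrying at least 1 copy of a CRISPR frameshift allele. IL-17 was given for 24 h after 24 h of siRNA, and no times were found for the other tables. The CFs were plated primary cells and no donor animals are named, so p values measure only the spread between these libraries, which may be technical.

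Glycolysis begins when a GLUT carrier admits glucose and a hexokinase phosphorylates it. Phosphofructokinase-1 commits the sugar and is switched on by fructose-2,6-bisphosphate, which the Pfkfb enzymes make and break down, and the lower steps yield ATP and pyruvate. Pyruvate becomes lactate through lactate dehydrogenase and leaves through monocarboxylate transporters, or enters mitochondria through pyruvate dehydrogenase, which the Pdk kinases switch off. Many of these genes are textbook targets of the transcription factor HIF-1, and fibroblasts and heart muscle use different isozymes at several steps.

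A CF library held 104139670 to 119232309 estimated counts and a heart 23497027 to 23857313 counts. The siRNA target was lower in all 18 knockdown libraries, at 23.5 ± 1.98 CPM in untreated Scrambled cells against 3.01 ± 0.494 CPM in siR-1 cells and 1.84 ± 0.0635 CPM in siR-2 cells (SD, n = 3), and the frameshift allele left the transcript at similar levels in both heart groups, so it checks nothing there. Levels are given in CPM, the count of a gene scaled by library size after TMM normalization. A gene was called higher or lower where its adjusted p (edgeR's quasi-likelihood test, Benjamini-Hochberg over all genes of a table) did not exceed 0.05, and a stricter rule also asked for a 2-fold change in untreated cells and hearts or a 1.5-fold change under a stimulus. All 34 rows passed the filter on low counts in CFs and 33 did in hearts.

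**Figure D1:**
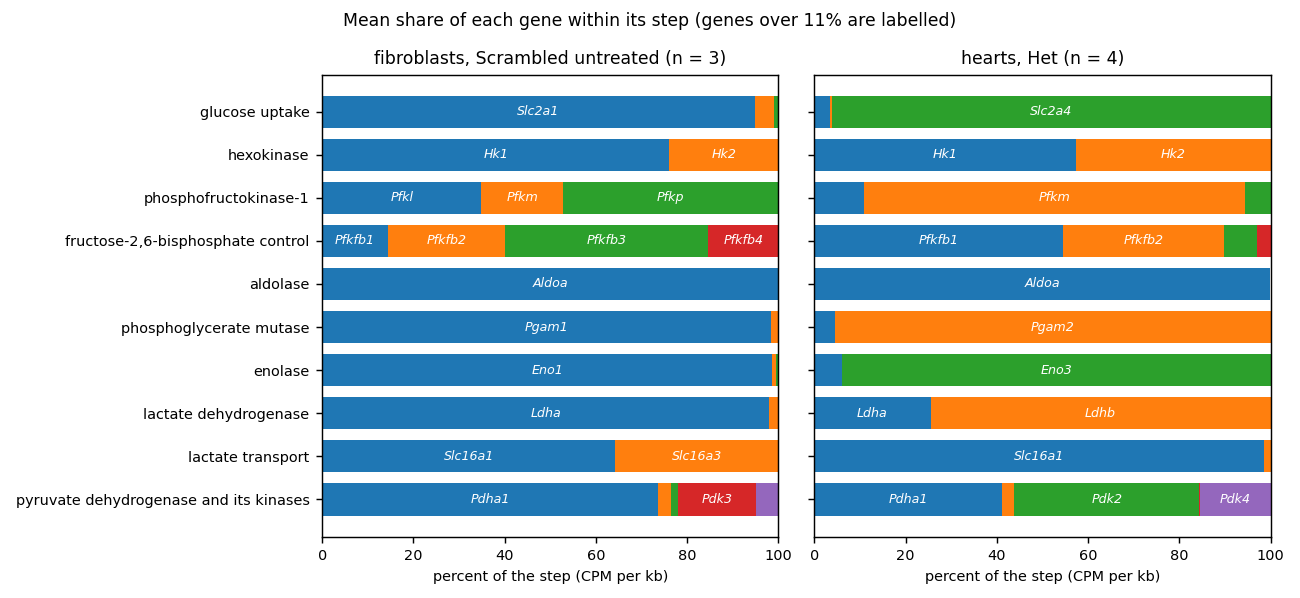
Mean share of each gene in the summed level of its step (percent, by CPM per kb of transcript) in untreated Scrambled CFs (left, n = 3) and Het hearts (right, n = 4). The carriers, phosphofructokinase, the Pfkfb genes, the mutases, the enolases and the lactate dehydrogenases are each led by a different gene in the 2 sources.

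CFs and hearts used different isozyme transcripts at several steps. Among the 3 glucose carriers, Slc2a1 (GLUT1, the common carrier of proliferating cells) held 94.8% ± 0.612 of the level per kb in untreated Scrambled CFs (SD, n = 3), and Slc2a4 (GLUT4, the insulin-responsive carrier of muscle) held 96.1% ± 0.261 in Het hearts (SD, n = 4). The mutases followed the same split, with Pgam1 at 98.3% ± 0.177 in CFs and its muscle counterpart Pgam2 at 95.5% ± 1.02 in hearts. Eno1 held 98.6% ± 0.0897 of enolase in CFs and the muscle enolase Eno3 held 93.9% ± 0.291 in hearts. Ldha, whose subunit favours making lactate, held 97.9% ± 0.177 of lactate dehydrogenase in CFs, and Ldhb held 74.5% ± 0.57 in hearts. At phosphofructokinase, Pfkp led in CFs at 22.8 ± 0.139 CPM per kb (SD, n = 3), an order that rests on the transcript length used. Pfkm led that step in hearts, at 257 ± 6.30 CPM per kb (SD, n = 4). CFs and hearts came from separate tables, so these are levels side by side with no test.

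By level per kb, Gapdh was highest in untreated Scrambled CFs at 999 ± 18.9 CPM per kb (SD, n = 3). It was followed by Pkm at 579.6 ± 8.58 CPM per kb, Ldha at 525 ± 17.3 and Aldoa at 517 ± 15.3. The ranges of Ldha and Aldoa overlapped, so their order does not stand beyond the spread. Below them came Eno1, Pgk1, Pgam1, Tpi1, Gpi1, Pdha1, Hk1 and Slc2a1, each with a range clear of the next. The low end held Slc2a3, Aldoc and Slc2a4, with Slc2a4 at 0.251 ± 0.0624 CPM per kb. In Het hearts the order opened with Aldoa at 1838 ± 82.1 CPM per kb (SD, n = 4), Ldhb at 776 ± 30.3 and Eno3 at 629 ± 29.0, and the range of Eno3 overlapped that of Pgam2 at 591 ± 46.0.

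In untreated CFs, both siRNAs raised members at most steps from glucose uptake to pyruvate kinase, and siR-2 raised more of them. With siR-1, 13 of 34 rows were higher, against 19.5% of all 19669 genes tested, and 8 were lower, against 20.4%. With siR-2, 21 were higher, against 24.4% of all genes, and 7 were lower, against 25%. On the log2 scale the members' median change was 0.07 after siR-1 and 0.39 after siR-2, beside -0.02 and -0.02 over all genes. By the stricter rule 2 members passed with siR-1, where 4.76% of all genes did, and 5 with siR-2, where 10.7% did. 13 genes rose with both siRNAs, where 12.1% of all genes did, namely Slc2a1, Hk2, Gpi1, Pfkl, Pfkfb2, Aldoc, Gapdh, Pgk1, Pgam1, Eno1, Pkm, Slc16a1 and Pdha1. Pgam2, Ldhb and Pdk4 fell with both, where 12% of all genes did, and the siRNAs share their Scrambled libraries. Pfkfb4 and Slc16a3 were lower with siR-1 and higher with siR-2.

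**Figure D2:**
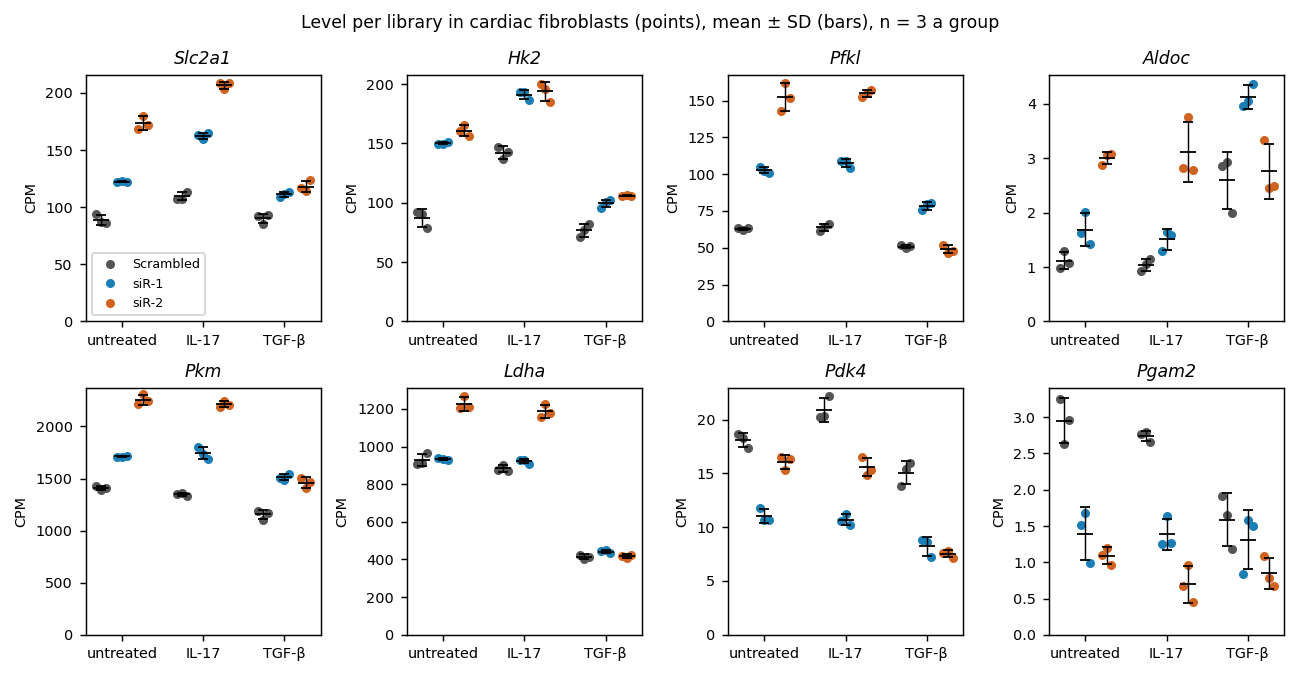
CPM per CF library (points) with the mean and SD (bars, n = 3) for 8 genes, by table and siRNA on linear axes from 0. Slc2a1, Hk2 and Pkm lie above Scrambled with both siRNAs in each table. Pfkl and Aldoc do so with siR-1 in each table and with siR-2 in untreated and IL-17 cells. Under TGF-β their siR-2 libraries overlap the Scrambled range, and Pdk4 lies below Scrambled in each knockdown group.

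At the point of entry, Slc2a1 stood at 94.1, 87.2 and 86.1 CPM in the Scrambled libraries, at 122, 123 and 122 CPM with siR-1 and at 168, 180.1 and 172 CPM with siR-2. The 3 groups did not overlap, and siR-2 was highest. The log2 fold change against Scrambled was 0.45 (SE 0.04, adjusted p = 3.1e-08) with siR-1 and 0.94 (SE 0.04, adjusted p = 1.4e-12) with siR-2 by edgeR. Slc2a3 (GLUT3) was not called with either siRNA, at 4.98 ± 0.388 CPM, 4.76 ± 0.553 CPM and 4.41 ± 0.332 CPM in Scrambled, siR-1 and siR-2 cells (SD, n = 3). Slc2a4 was close to the floor of 3 read pairs a library, at 0.471, 0.642 and 0.786 CPM in Scrambled cells and 0.141, 0.232 and 0.143 CPM with siR-1. It was called lower with siR-1, with a log2 fold change of -1.88 (SE 0.44, adjusted p = 0.00228) by edgeR.

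The 2 hexokinases went different ways. Hk2, the inducible hexokinase, stood at 92.2, 90.9 and 78.4 CPM in Scrambled libraries, 149.6, 149.6 and 151 CPM in siR-1 libraries and 160.5, 165 and 156 CPM in siR-2 libraries. All 6 knockdown libraries lay above the 3 Scrambled libraries. The log2 fold change was 0.78 (SE 0.05, adjusted p = 1.0e-09) and 0.86 (SE 0.05, adjusted p = 1.1e-10) by edgeR. Hk1, the constitutive hexokinase, fell with siR-1, with a log2 fold change of -0.34 (SE 0.04, adjusted p = 1.2e-06) by edgeR and was not called with siR-2, at 193 ± 3.89 CPM in Scrambled, 153 ± 7.96 CPM in siR-1 and 199 ± 7.55 CPM in siR-2 cells (SD, n = 3). Gpi1, the isomerase after hexokinase, rose by 0.18 (SE 0.03, adjusted p = 7.2e-05) and 0.54 (SE 0.03, adjusted p = 7.6e-11) on the log2 scale by edgeR.

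The subunits of phosphofructokinase-1 are of 3 types, and the liver-type subunit Pfkl changed most. Pfkl stood at 63.3, 62.1 and 63.5 CPM in Scrambled libraries, 105, 102 and 101 CPM in siR-1 libraries and 143, 162 and 152 CPM in siR-2 libraries. The 3 groups were apart, in the order Scrambled, siR-1 and siR-2. By edgeR, its log2 fold change was 0.70 (SE 0.04, adjusted p = 3.1e-10) with siR-1 and 1.25 (SE 0.04, adjusted p = 9.5e-14) with siR-2. The platelet-type subunit Pfkp rose with siR-2, by 0.61 (SE 0.03, adjusted p = 4.4e-11) on the log2 scale by edgeR, and was not called with siR-1, at 94.6 ± 0.578 CPM in Scrambled and 97.2 ± 1.87 CPM in siR-1 cells (SD, n = 3). The muscle-type subunit Pfkm was called lower with siR-1, with a log2 fold change of -0.18 (SE 0.07, adjusted p = 0.0462) by edgeR, a call lost on leaving out Scrambled replicate 3, siR-1 replicate 1 or 2, or any siR-2 library, and also with no filter on low counts or with only the 2 groups compared in the fit.

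The Pfkfb genes, which set fructose-2,6-bisphosphate, did not move as a group. Pfkfb2 rose with both siRNAs, by 0.39 (SE 0.08, adjusted p = 4.9e-04) and 0.28 (SE 0.08, adjusted p = 0.00528) on the log2 scale by edgeR. Pfkfb4 fell with siR-1 and rose with siR-2, at -0.52 (SE 0.11, adjusted p = 7.6e-04) and 0.41 (SE 0.10, adjusted p = 0.00327). Pfkfb3, the isoform with the strongest kinase activity, was called only with siR-2, at -0.23 (SE 0.06, adjusted p = 0.00461) by edgeR. Pfkfb1 fell with siR-2 from 3.21 ± 0.430 CPM to 1.31 ± 0.188 CPM (SD, n = 3), a log2 fold change of -1.31 (SE 0.18, adjusted p = 1.1e-05) by edgeR. Exons of Pfkfb1, Pfkfb2, Pfkm and Pfkp overlap those of Apex2, Yod1, Senp1 and Pitrm1 on the opposite strand, and whether the counting used strand is not given in the sources used here, so reads of each pair may be shared. The median CF count of Apex2 was 599% of that of Pfkfb1.

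From aldolase to pyruvate kinase the abundant genes rose by small amounts that replicates resolved. Aldoa, the main aldolase, rose with siR-2 by 0.41 (SE 0.03, adjusted p = 1.7e-08) on the log2 scale by edgeR, and with siR-1 stood at 822 ± 18.9 CPM against 782 ± 23.1 CPM in Scrambled cells (SD, n = 3), which was not called. Aldoc, a minor aldolase, stood at 0.992, 1.29 and 1.07 CPM in Scrambled libraries, 1.62, 2.01 and 1.43 CPM in siR-1 libraries and 2.89, 3.07 and 3.08 CPM in siR-2 libraries. The groups did not overlap. The log2 fold change of Aldoc was 0.59 (SE 0.18, adjusted p = 0.0157) and 1.41 (SE 0.18, adjusted p = 4.7e-06) by edgeR, and the siR-1 call was lost without Scrambled replicate 1 or siR-1 replicate 2. Tpi1, triose-phosphate isomerase, rose with siR-2 by 0.64 (SE 0.03, adjusted p = 4.6e-11) by edgeR, with 255 ± 4.25 CPM in Scrambled and 268 ± 3.46 CPM in siR-1 cells (SD, n = 3).

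Gapdh, which is widely used as a reference transcript, stood at 1437, 1388 and 1430.0 CPM in Scrambled libraries, 1570.4, 1558 and 1575 CPM in siR-1 libraries and 1702, 1772 and 1792 CPM in siR-2 libraries. Its 3 groups did not overlap, and the log2 fold change was 0.14 (SE 0.03, adjusted p = 6.8e-04) and 0.29 (SE 0.03, adjusted p = 1.5e-07) by edgeR. Pgk1, the first ATP-yielding kinase, rose by 0.15 (SE 0.03, adjusted p = 5.1e-04) and 0.40 (SE 0.03, adjusted p = 5.0e-09). Pgam1 rose by 0.17 (SE 0.03, adjusted p = 5.4e-05) and 0.61 (SE 0.03, adjusted p = 6.0e-12), and Eno1 by 0.35 (SE 0.03, adjusted p = 5.2e-08) and 0.44 (SE 0.03, adjusted p = 1.5e-09). Pkm, pyruvate kinase and the last step to pyruvate, stood at 1431, 1389.7 and 1408 CPM in Scrambled libraries, 1711, 1707 and 1716 CPM in siR-1 libraries and 2213, 2310.2 and 2245 CPM in siR-2 libraries. The Pkm groups were apart, with log2 fold changes of 0.27 (SE 0.03, adjusted p = 2.1e-07) and 0.66 (SE 0.03, adjusted p = 1.6e-12) by edgeR.

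The isozymes that heart muscle uses at these steps were scarce in CFs and did not follow the abundant forms. Pgam2 stood at 3.26, 2.64 and 2.97 CPM in Scrambled libraries, 1.52, 1.68 and 0.983 CPM in siR-1 libraries and 1.10, 1.20 and 0.966 CPM in siR-2 libraries. Both knockdown groups lay below Scrambled, and the log2 fold change was -1.09 (SE 0.20, adjusted p = 3.6e-04) and -1.46 (SE 0.21, adjusted p = 1.4e-05) by edgeR. Eno3 was not called, at 4.15 ± 0.186 CPM, 3.41 ± 0.348 CPM and 4.14 ± 0.131 CPM in Scrambled, siR-1 and siR-2 cells (SD, n = 3). Eno2, the neuronal enolase, fell with siR-2 from 9.50 ± 0.984 CPM to 3.89 ± 0.832 CPM, a log2 fold change of -1.31 (SE 0.13, adjusted p = 1.6e-07) by edgeR. Of the cardiomyocyte markers, Tnnt2 moved with Pgam2, at 93.4 ± 4.14 CPM, 44.4 ± 2.89 CPM and 30.0 ± 2.62 CPM in Scrambled, siR-1 and siR-2 cells, and its part in the Pgam2 values was not tested. The other 7 markers of that list, among them Myh6, Actc1, Mb and Pln, averaged under 1 CPM in every CF group, and the summed list ran from 90.6 to 98.1 CPM in untreated Scrambled, 42.2 to 47.2 CPM in siR-1 and 27.8 to 32.7 CPM in siR-2 libraries. Sums of other marker lists moved as well. Fibroblast markers summed to 12753 to 13137 CPM, 18201 to 19035 CPM and 16843 to 17151 CPM in Scrambled, siR-1 and siR-2 libraries. Macrophage markers summed to 56.8 to 60.8 CPM, 57.8 to 61.0 CPM and 72.9 to 77.6 CPM. Single markers split, beside the shares of all genes given above. Of 8 fibroblast markers, siR-1 gave 4 higher and 1 lower and siR-2 gave 3 higher and 4 lower. The median log2 change of these 8 with siR-2 was -0.15. Of 6 macrophage markers, siR-1 gave 1 higher and 1 lower and siR-2 gave 2 higher and 1 lower. The part of these markers in the members' values was not tested. In bulk RNA, fewer cells of a type and less RNA per cell cannot be told apart.

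At the lactate end, Ldha stood at 909, 912 and 963 CPM in Scrambled libraries, 940.3, 934 and 928 CPM in siR-1 libraries and 1203, 1269 and 1210.4 CPM in siR-2 libraries. The siR-1 libraries lay inside the Scrambled range and siR-2 lay above it. The siR-2 log2 fold change was 0.38 (SE 0.03, adjusted p = 1.1e-08) by edgeR. Ldhb fell from 15.5, 13.9 and 13.8 CPM in Scrambled to 8.07, 9.03 and 8.88 CPM in siR-1 libraries and 11.4, 10.5 and 10.1 CPM in siR-2 libraries, with log2 fold changes of -0.74 (SE 0.08, adjusted p = 1.2e-06) and -0.45 (SE 0.08, adjusted p = 1.4e-04) by edgeR. Slc16a1 (MCT1, a lactate carrier) rose by 0.18 (SE 0.04, adjusted p = 0.00265) and 0.24 (SE 0.04, adjusted p = 1.1e-04). Slc16a3 (MCT4, the carrier of strongly glycolytic cells) rose with siR-2 by 0.54 (SE 0.07, adjusted p = 2.5e-06) by edgeR and was called lower with siR-1, at -0.18 (SE 0.07, adjusted p = 0.0348), a call lost without Scrambled replicate 1 or 3 or siR-1 replicate 1, and with no filter on low counts.

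At the pyruvate dehydrogenase gate, Pdha1, the catalytic subunit, rose by 0.15 (SE 0.03, adjusted p = 3.0e-04) and 0.51 (SE 0.03, adjusted p = 7.2e-11) on the log2 scale by edgeR. The kinases that switch the complex off split. Pdk4, the kinase linked to fatty acid use, stood at 18.7, 18.3 and 17.4 CPM in Scrambled libraries, 11.8, 10.7 and 10.7 CPM in siR-1 libraries and 16.6, 15.3 and 16.3 CPM in siR-2 libraries. Both knockdown groups lay below Scrambled, with log2 fold changes of -0.72 (SE 0.07, adjusted p = 2.3e-07) and -0.19 (SE 0.07, adjusted p = 0.0252) by edgeR, and the siR-2 call was lost without Scrambled replicate 1 or 2 or siR-2 replicate 2. Pdk1, a HIF-1 target kinase, and Pdk2 rose with siR-2, by 0.66 (SE 0.08, adjusted p = 1.2e-06) and 0.75 (SE 0.16, adjusted p = 8.0e-04), and were not called with siR-1. Pdk3 fell with siR-2, at -0.28 (SE 0.07, adjusted p = 0.00151) by edgeR.

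**Figure D3:**
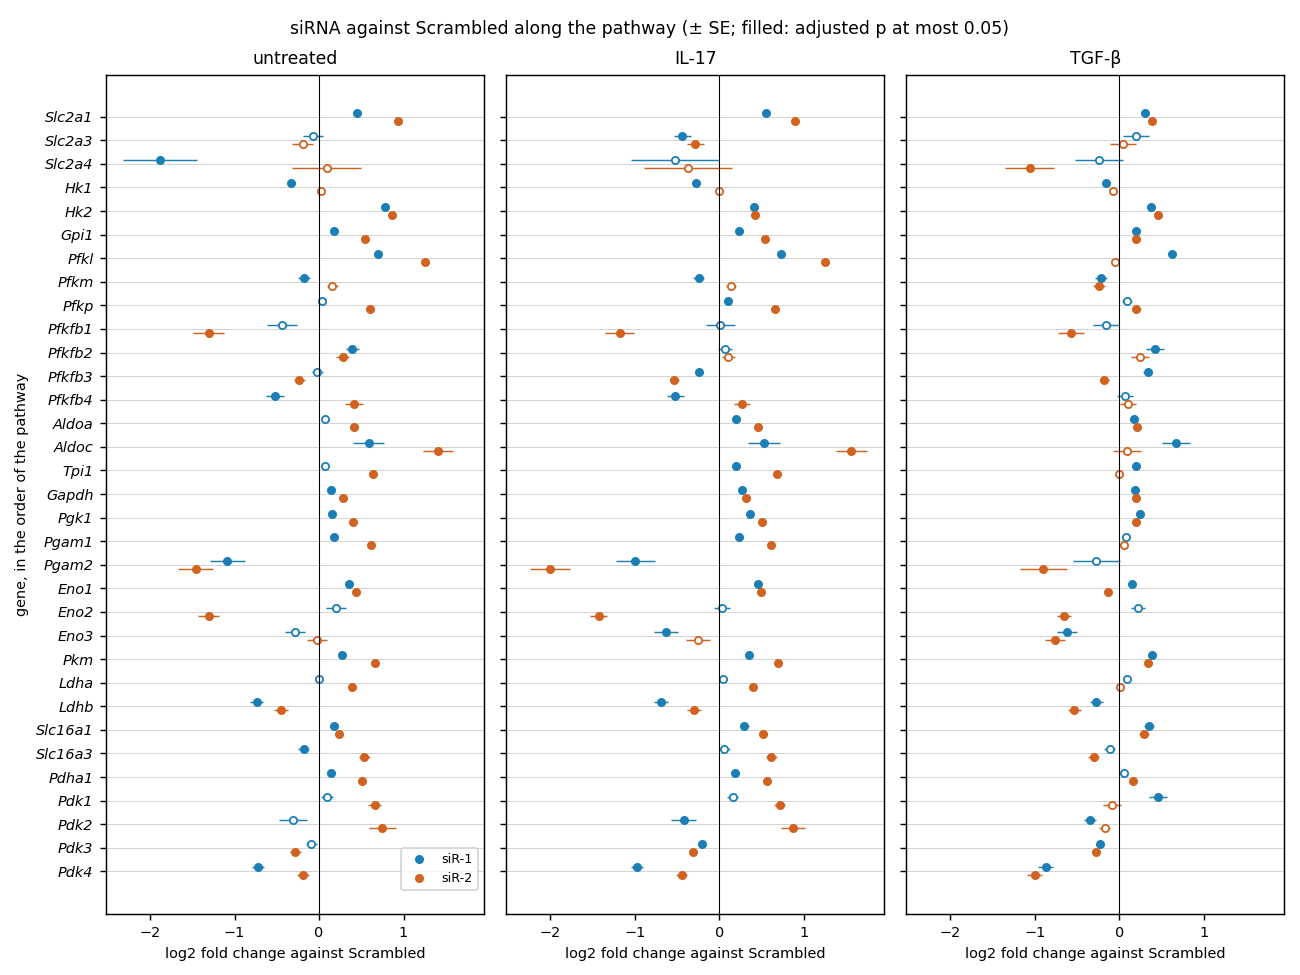
log2 fold change against Scrambled (± SE, edgeR) of each gene in pathway order for siR-1 and siR-2 in untreated, IL-17 and TGF-β CFs, 3 libraries a group. Filled points passed an adjusted p of 0.05, and most of the siR-2 points from Slc2a1 to Pkm that lie right of 0 in the first 2 panels lie closer to 0 under TGF-β.

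Promoters of 31 of the 33 genes were found in RefSeq (GRCm38.p6), 50 in all, and the 250 bases upstream of the start site were searched for ACGTG or GCGTG on either strand, the core letters of the hypoxia response element to which HIF-1 binds. CACGTG, the E-box, contains ACGTG, so its matches are counted in both. ACGTG or GCGTG was present in 37 of the 50 promoters (74.0%), against 38.6% of all 32851 promoters and 52.1% of the 16266 promoters of genes tested in untreated CFs. CACGTG was in 12% of the member promoters, 6.02% of all promoters and 7.82% of the promoters of tested genes. Windows of the same gene can overlap, as for Eno1, Aldoa and Pfkm, so a match can be counted in more than 1 promoter. The first listed promoters of 5 genes are shown as examples. Slc2a1, Hk2, Pfkl and Aldoc rose with both siRNAs in untreated and IL-17 cells, and Pdk4 fell with both in all 3 tables. Gpi1, Gapdh, Pgk1, Pgam1, Eno1, Pkm, Slc16a1 and Pdha1 rose in the same way and Ldhb fell in the same way, and their promoters are not shown. The 5 shown promoters lie at chr4:119108495-119108744, plus strand, for Slc2a1, at chr6:82774455-82774704, minus strand, for Hk2, at chr10:78009808-78010057, minus strand, for Pfkl, at chr11:78322823-78323072, plus strand, for Aldoc, and at chr6:5496279-5496528, minus strand, for Pdk4. Capitals mark ACGTG or GCGTG, or their reverse complements, in sequences written 5′ to 3′ on the strand of the gene.
Slc2a1: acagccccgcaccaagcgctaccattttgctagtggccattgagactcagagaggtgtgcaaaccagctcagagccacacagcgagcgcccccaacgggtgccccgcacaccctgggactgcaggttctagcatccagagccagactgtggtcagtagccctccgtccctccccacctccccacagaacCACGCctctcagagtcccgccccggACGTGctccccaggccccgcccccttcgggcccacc
Hk2: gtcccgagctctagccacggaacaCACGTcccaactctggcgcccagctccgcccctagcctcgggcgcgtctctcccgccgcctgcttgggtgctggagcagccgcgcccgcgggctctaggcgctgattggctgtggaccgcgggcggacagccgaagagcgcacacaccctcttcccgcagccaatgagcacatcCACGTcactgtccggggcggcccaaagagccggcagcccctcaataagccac
Pfkl: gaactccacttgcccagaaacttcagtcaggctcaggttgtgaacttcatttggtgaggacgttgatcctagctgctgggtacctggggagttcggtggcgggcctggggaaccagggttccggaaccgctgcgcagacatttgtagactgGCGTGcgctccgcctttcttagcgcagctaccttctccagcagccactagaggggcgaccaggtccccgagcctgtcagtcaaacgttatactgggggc
Aldoc: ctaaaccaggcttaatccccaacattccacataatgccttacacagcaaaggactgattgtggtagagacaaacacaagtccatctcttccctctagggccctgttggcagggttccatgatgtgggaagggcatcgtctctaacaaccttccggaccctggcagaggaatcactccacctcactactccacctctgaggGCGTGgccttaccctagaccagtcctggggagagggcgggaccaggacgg
Pdk4: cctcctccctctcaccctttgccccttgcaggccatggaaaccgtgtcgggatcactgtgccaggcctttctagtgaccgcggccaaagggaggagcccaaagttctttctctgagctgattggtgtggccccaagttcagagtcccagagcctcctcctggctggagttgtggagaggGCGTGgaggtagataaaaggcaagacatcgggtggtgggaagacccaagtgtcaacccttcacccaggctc
Each of the 5 holds at least 1 match, the falling Pdk4 included. No match was found in the promoters of Pgam2, Gpi1, Tpi1 and Eno2. The first listed promoters of Pkm, Hk1, Aldoa and Pfkfb1 also held none, but each of these genes has a match in another listed promoter. Of the genes without any match, Gpi1 rose with both siRNAs in all 3 tables, and Pgam2 fell with both in untreated and IL-17 cells. Among the genes named here, those with and those without a match moved in either direction. A match describes letters in a window and not binding.

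With IL-17, an inflammatory cytokine, both siRNAs again raised the main carrier, Hk2, Pfkl and the abundant enzymes down to Pkm, and lowered Pgam2, Ldhb and Pdk4. With siR-1, 15 rows were higher, against 20.3% of all 19906 genes, and 11 were lower, against 21.9%. With siR-2, 20 were higher, against 25% of all genes, and 8 were lower, against 25.6%. By the stricter rule, with its lower fold, 5 passed after siR-1 and 13 after siR-2, where 13.5% and 21.7% of all genes did. On the log2 scale the members' median change was 0.07 after siR-1 and 0.42 after siR-2, beside -0.0026 and -0.02 over all genes. 15 genes rose with both siRNAs, where 12.9% of all genes did, adding Pfkp, Aldoa and Tpi1 to those of untreated cells and leaving out Pfkfb2, which was not called with either.

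Under IL-17, Slc2a1 stood at 107, 108 and 114 CPM in Scrambled, 163, 159.8 and 165 CPM in siR-1 and 208, 203 and 209 CPM in siR-2 libraries. The 3 groups were again apart, with log2 fold changes of 0.56 (SE 0.03, adjusted p = 1.8e-10) and 0.90 (SE 0.03, adjusted p = 1.7e-13) by edgeR. Pfkl stood at 61.5, 64.1 and 66.4 CPM, 109, 109 and 104 CPM and 152, 155 and 157 CPM in the same order, and its log2 fold changes were 0.74 (SE 0.03, adjusted p = 2.0e-11) and 1.26 (SE 0.03, adjusted p = 1.0e-14). Hk2 rose by 0.42 (SE 0.03, adjusted p = 3.3e-08) and 0.43 (SE 0.03, adjusted p = 1.2e-08) from a Scrambled level of 142 ± 5.45 CPM (SD, n = 3). Aldoc was at 0.926, 1.05 and 1.14 CPM in Scrambled, 1.29, 1.65 and 1.59 CPM in siR-1 and 2.82, 3.76 and 2.78 CPM in siR-2 libraries, without overlap. The log2 fold change of Aldoc with siR-2 was 1.57 (SE 0.19, adjusted p = 1.6e-06) by edgeR, and with siR-1 0.53 (SE 0.19, adjusted p = 0.0302), a call lost without Scrambled replicate 1 or 2 or siR-1 replicate 2 or 3, in DESeq2 and with only 2 groups in the fit.

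Lower in the pathway under IL-17, Gpi1 rose by 0.23 (SE 0.03, adjusted p = 1.6e-06) and 0.55 (SE 0.03, adjusted p = 1.7e-11) with siR-1 and siR-2, on the log2 scale by edgeR. Tpi1 rose by 0.20 (SE 0.04, adjusted p = 2.1e-04) and 0.68 (SE 0.04, adjusted p = 3.8e-11), and Aldoa by 0.20 (SE 0.03, adjusted p = 2.0e-05) and 0.46 (SE 0.03, adjusted p = 3.9e-10). Gapdh rose by 0.27 (SE 0.02, adjusted p = 5.4e-08) and 0.32 (SE 0.02, adjusted p = 4.7e-09), and Pgk1 by 0.36 (SE 0.03, adjusted p = 1.7e-07) and 0.51 (SE 0.03, adjusted p = 1.2e-09). Pgam1 rose by 0.23 (SE 0.03, adjusted p = 1.0e-06) and 0.62 (SE 0.03, adjusted p = 2.2e-12), and Eno1 by 0.46 (SE 0.02, adjusted p = 1.1e-10) and 0.49 (SE 0.02, adjusted p = 2.1e-11). Pkm rose by 0.36 (SE 0.03, adjusted p = 6.8e-09) and 0.69 (SE 0.03, adjusted p = 5.8e-13). Thus each of the 8 abundant genes of these steps rose with both siRNAs, and all but Eno1 and Gapdh were also higher with siR-2 than with siR-1. Pfkp rose by 0.66 (SE 0.04, adjusted p = 2.7e-10) with siR-2 by edgeR, and its siR-1 call of 0.11 (SE 0.04, adjusted p = 0.0424) was lost in DESeq2, with RLE size factors, with no filter on low counts and on leaving out any of 6 single libraries, all 3 Scrambled ones among them.

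At the exits under IL-17, Slc16a1 rose by 0.30 (SE 0.05, adjusted p = 8.2e-05) and 0.52 (SE 0.05, adjusted p = 8.7e-08) and Pdha1 by 0.18 (SE 0.03, adjusted p = 3.0e-05) and 0.56 (SE 0.03, adjusted p = 1.5e-11) by edgeR. Ldha rose with siR-2 by 0.41 (SE 0.03, adjusted p = 6.2e-10), Slc16a3 by 0.62 (SE 0.06, adjusted p = 2.2e-07) and Pdk1 by 0.72 (SE 0.07, adjusted p = 1.0e-07), and none of these 3 was called with siR-1. Pdk2 was the member called in opposite directions at this gate, at -0.42 (SE 0.15, adjusted p = 0.0297) with siR-1 and 0.87 (SE 0.15, adjusted p = 6.6e-05) with siR-2, the former lost without Scrambled replicate 1 or 2 or siR-1 replicate 1 or 2, and with only 2 groups in the fit. Pdk4 fell from 20.2, 20.3 and 22.2 CPM in Scrambled to 10.6, 11.2 and 10.2 CPM in siR-1 libraries and 16.5, 14.9 and 15.3 CPM in siR-2 libraries, without overlap. For Pdk4 the log2 fold change was -0.98 (SE 0.07, adjusted p = 4.5e-09) and -0.44 (SE 0.07, adjusted p = 2.9e-05) by edgeR.

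6 genes fell with both siRNAs under IL-17, where 13.5% of all genes did. Besides Pdk4, Pgam2 fell from 2.74 ± 0.0731 CPM to 1.39 ± 0.213 CPM and 0.696 ± 0.255 CPM (SD, n = 3), at -0.99 (SE 0.23, adjusted p = 0.00179) and -2.0 (SE 0.24, adjusted p = 1.5e-06) on the log2 scale by edgeR. Tnnt2 stood at 71.8 ± 3.60 CPM, 33.5 ± 1.97 CPM and 23.6 ± 1.42 CPM in Scrambled, siR-1 and siR-2 cells. Of 4 cardiomyocyte markers tested, siR-1 gave 1 higher and 1 lower, against 20.3% and 21.9% of all genes. On the same list siR-2 gave 0 higher and 1 lower, against 25% and 25.6%. The part of these markers in the Pgam2 values was not tested. Ldhb fell, at -0.68 (SE 0.08, adjusted p = 2.8e-06) and -0.29 (SE 0.08, adjusted p = 0.00596). Pfkfb3 fell, at -0.24 (SE 0.05, adjusted p = 0.00103) and -0.53 (SE 0.05, adjusted p = 1.2e-07), and Pdk3 fell, at -0.20 (SE 0.05, adjusted p = 0.00289) and -0.31 (SE 0.05, adjusted p = 3.9e-05). Slc2a3 fell, at -0.44 (SE 0.10, adjusted p = 0.00162) and -0.28 (SE 0.10, adjusted p = 0.0253), the siR-2 call being lost without Scrambled replicate 1 or siR-2 replicate 1 or 3. Hk1 and Pfkm fell with siR-1 and were not called with siR-2, at -0.27 (SE 0.04, adjusted p = 9.0e-06) and -0.24 (SE 0.06, adjusted p = 0.00318) by edgeR. Pfkfb4 was called in opposite directions, at -0.52 (SE 0.10, adjusted p = 3.8e-04) with siR-1 and 0.27 (SE 0.10, adjusted p = 0.0294) with siR-2, the latter lost without Scrambled replicate 1 or siR-2 replicate 3. Also with a single siRNA, Eno3 fell with siR-1, at -0.63 (SE 0.14, adjusted p = 0.00148), and Eno2 and Pfkfb1 fell with siR-2, at -1.43 (SE 0.10, adjusted p = 2.2e-09) and -1.18 (SE 0.17, adjusted p = 1.9e-05) by edgeR.

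Under TGF-β, the cytokine that drives fibroblasts towards matrix-producing myofibroblasts, the effects of siR-2 on the members departed most from those in untreated cells. With siR-1, 15 rows were higher, against 11.7% of all 19891 genes, and 7 were lower, against 11.4%. With siR-2, 10 were higher, against 15.1%, and 12 were lower, against 14.8%. By the stricter rule 4 passed after siR-1 and 5 after siR-2, where 4.36% and 7.51% of all genes did. On the log2 scale the members' median change was 0.13 after siR-1 and -0.03 after siR-2, beside 0.0003 and 0.01 over all genes. Slc2a1, Hk2, Gpi1, Aldoa, Gapdh, Pgk1, Pkm and Slc16a1, 8 genes, rose with both siRNAs, where 7.17% of all genes did. Pfkm, Eno3, Ldhb, Pdk3 and Pdk4, 5 genes, fell with both, where 6.38% of all genes did, and Pfkfb3 and Eno1 were higher with siR-1 and lower with siR-2.

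The change of pattern under TGF-β was clearest at phosphofructokinase and aldolase. Pfkl stood at 51.8, 49.6 and 51.3 CPM in Scrambled, 75.6, 79.7 and 80.1 CPM in siR-1 and 52.1, 46.8 and 48.1 CPM in siR-2 libraries. The siR-1 libraries lay above the others and the siR-2 and Scrambled libraries overlapped. The log2 fold change of Pfkl with siR-1 was 0.63 (SE 0.05, adjusted p = 3.6e-08) by edgeR. Aldoc stood at 2.86, 2.94 and 1.99 CPM in Scrambled, 3.96, 4.05 and 4.37 CPM in siR-1 and 3.34, 2.45 and 2.49 CPM in siR-2 libraries, again with siR-1 apart and siR-2 overlapping Scrambled. Its siR-1 log2 fold change was 0.67 (SE 0.17, adjusted p = 0.00694). Tpi1, Pfkfb2 and Pdk1 were also called higher with siR-1 alone, at 0.19 (SE 0.04, adjusted p = 0.00219), 0.42 (SE 0.11, adjusted p = 0.00735) and 0.46 (SE 0.10, adjusted p = 0.00335) by edgeR.

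Entry and the last step kept their direction with both siRNAs under TGF-β. Slc2a1 stood at 92.7, 85.7 and 92.8 CPM in Scrambled, 109, 111 and 113 CPM in siR-1 and 117, 114 and 123 CPM in siR-2 libraries, and rose by 0.30 (SE 0.04, adjusted p = 3.2e-05) and 0.39 (SE 0.04, adjusted p = 1.2e-06) on the log2 scale by edgeR. Both knockdown groups lay above Scrambled. Hk2 rose by 0.37 (SE 0.05, adjusted p = 1.1e-05) and 0.46 (SE 0.05, adjusted p = 5.5e-07), and Gpi1 by 0.20 (SE 0.04, adjusted p = 4.7e-04) and 0.20 (SE 0.04, adjusted p = 3.1e-04). Aldoa rose by 0.17 (SE 0.03, adjusted p = 6.4e-04) and 0.21 (SE 0.03, adjusted p = 5.8e-05), and Gapdh by 0.19 (SE 0.04, adjusted p = 0.00110) and 0.19 (SE 0.04, adjusted p = 6.3e-04). Pgk1 rose by 0.25 (SE 0.03, adjusted p = 3.9e-05) and 0.20 (SE 0.03, adjusted p = 2.5e-04), Pkm by 0.39 (SE 0.04, adjusted p = 5.2e-07) and 0.34 (SE 0.04, adjusted p = 1.4e-06), and Slc16a1 by 0.35 (SE 0.06, adjusted p = 2.5e-04) and 0.30 (SE 0.06, adjusted p = 8.1e-04). Eno1 was called in opposite directions, at 0.16 (SE 0.04, adjusted p = 0.00456) with siR-1 and -0.13 (SE 0.04, adjusted p = 0.0102) with siR-2, the latter lost without siR-2 replicate 2. Pfkfb3 likewise was at 0.34 (SE 0.05, adjusted p = 1.6e-04) and -0.18 (SE 0.05, adjusted p = 0.0198), the latter lost without Scrambled replicate 2 or siR-2 replicate 2.

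Pdk4 fell with both siRNAs in each of the 3 CF tables, and under TGF-β it stood at 13.9, 15.4 and 16.0 CPM in Scrambled, 8.84, 8.67 and 7.21 CPM in siR-1 and 7.60, 7.81 and 7.17 CPM in siR-2 libraries. The groups did not overlap with Scrambled, and the log2 fold changes were -0.87 (SE 0.09, adjusted p = 1.6e-06) and -1.0 (SE 0.09, adjusted p = 1.9e-07) by edgeR. Ldhb also fell with both in each table, under TGF-β at -0.27 (SE 0.08, adjusted p = 0.0166) and -0.53 (SE 0.08, adjusted p = 5.1e-05), the siR-1 call being lost without Scrambled replicate 3 or siR-1 replicate 1. Eno3 fell, at -0.62 (SE 0.12, adjusted p = 9.3e-04) and -0.76 (SE 0.12, adjusted p = 1.0e-04) and Pdk3 fell, at -0.23 (SE 0.05, adjusted p = 0.00207) and -0.28 (SE 0.05, adjusted p = 3.1e-04). Pfkm fell, at -0.22 (SE 0.07, adjusted p = 0.0322) and -0.24 (SE 0.07, adjusted p = 0.0150), and both calls were lost without TGF-β Scrambled replicate 1 or 3, the siR-1 call also without siR-1 replicate 1 or 2, and the siR-2 call without siR-2 replicate 2. Eno2, Slc16a3, Pfkfb1, Pgam2 and Slc2a4 were called lower with siR-2 alone, at -0.66, -0.30, -0.57, -0.90 and -1.06 on the log2 scale, and Hk1 and Pdk2 with siR-1 alone, at -0.15 and -0.35. Pfkp and Pdha1 were called higher with siR-2 alone, at 0.20 and 0.17, the Pfkp call being lost without siR-2 replicate 1. The Pgam2 call was lost without Scrambled replicate 1 or 2 or siR-2 replicate 2 or 3, and the Hk1 call without siR-1 replicate 2.

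Within each table, siR-2 was set against siR-1. In untreated cells, 23 rows were higher with siR-2 than with siR-1, where 22.7% of all genes were, and 4 were lower, where 22.8% were. Under IL-17 the counts were 22 and 4, where 23.1% of all genes were higher and 23.1% lower. Under TGF-β the balance was the other way, with 1 row higher and 9 lower, where 12% and 12% of all genes were. For Pfkl the log2 difference between siR-2 and siR-1 was 0.56 (SE 0.04, adjusted p = 2.9e-09) in untreated cells, 0.52 (SE 0.03, adjusted p = 1.0e-09) under IL-17 and -0.68 (SE 0.05, adjusted p = 2.4e-08) under TGF-β by edgeR. Eno2 was lower with siR-2 than with siR-1 in each table, at -1.51 (SE 0.13, adjusted p = 3.7e-08), -1.46 (SE 0.10, adjusted p = 2.5e-09) and -0.88 (SE 0.08, adjusted p = 8.4e-07). Pkm differed by 0.39 (SE 0.03, adjusted p = 2.2e-09) and 0.34 (SE 0.03, adjusted p = 1.0e-08) in untreated and IL-17 cells and was not called under TGF-β. The row higher with siR-2 under TGF-β was Pdha1, at 0.11 (SE 0.03, adjusted p = 0.0224), a call lost without siR-1 replicate 2 or 3 or siR-2 replicate 2.

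**Figure D4:**
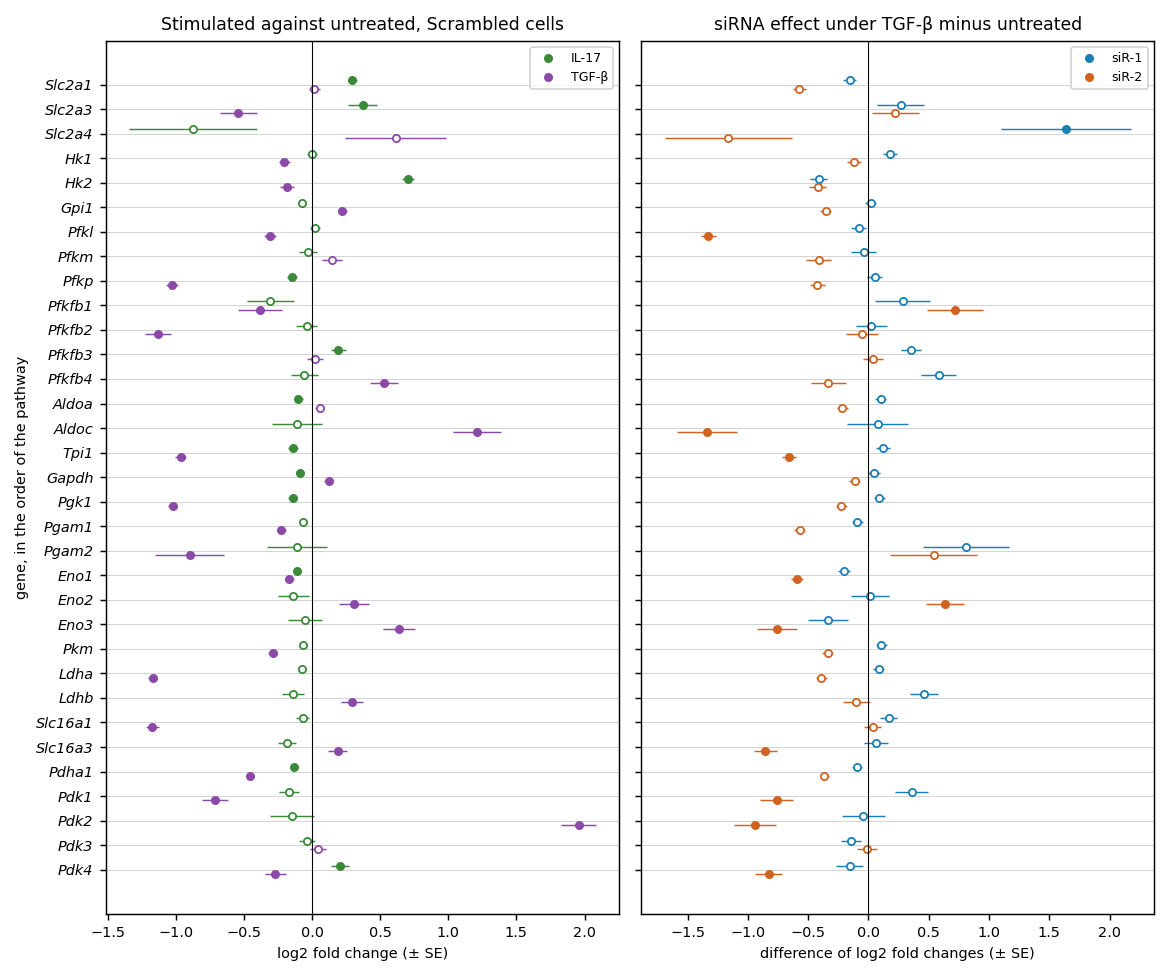
Left, log2 fold change (± SE, edgeR) of IL-17 or TGF-β against untreated cells in Scrambled CFs, in pathway order, filled where the adjusted p did not exceed 0.05. Right, the siRNA effect under TGF-β minus that in untreated cells (± SE), filled where the difference was also at least 1.5-fold, which 1 gene passed for siR-1 and 11 for siR-2.

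The stimuli themselves were compared in Scrambled cells across tables, so stimulus and experiment cannot be told apart. With IL-17, 5 rows were higher, against 6.61% of all 21219 genes, and 7 were lower, against 6.96%. Of the members, Hk2 alone passed the stricter rule, where 3.08% of all genes did, going from 92.2, 90.9 and 78.4 CPM in untreated to 147, 136 and 143 CPM in IL-17 libraries, without overlap. For Hk2 the log2 fold change was 0.70 (SE 0.04, adjusted p = 5.3e-12) by edgeR. Slc2a1 rose by 0.29 (SE 0.03, adjusted p = 3.4e-07), and Slc2a3, Pfkfb3 and Pdk4 were the other 3 called higher, at 0.37, 0.19 and 0.20. The Pdk4 call was lost without any 1 of the 6 libraries, the Slc2a3 call without untreated replicate 1 or 2 or IL-17 replicate 1, and the Pfkfb3 call without untreated replicate 3 or IL-17 replicate 1 or 2. The 7 lower genes, Pfkp, Aldoa, Tpi1, Gapdh, Pgk1, Eno1 and Pdha1, changed by log2 values from -0.15 to -0.09. The count of higher genes was 3 without untreated Scrambled replicate 1, 2 or 3, 2 without IL-17 Scrambled replicate 1 and 3 without IL-17 Scrambled replicate 2.

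With TGF-β, 9 rows were higher, against 29.3% of all 21508 genes, and 18 were lower, against 28%, and 11 passed the stricter rule, where 34.9% of all genes did. Ldha, Slc16a1 and Pgk1 were among the 8 genes that fell past that fold. Ldha went from 909, 912 and 963 CPM in untreated to 426, 400.1 and 415 CPM in TGF-β libraries, a log2 fold change of -1.17 (SE 0.03, adjusted p = 1.7e-19) by edgeR. Slc16a1 fell from 45.2 ± 1.46 CPM to 20.1 ± 0.788 CPM (SD, n = 3), at -1.17 (SE 0.05, adjusted p = 4.6e-16) on the log2 scale. Pgk1 fell from 495 ± 1.60 CPM to 244 ± 9.22 CPM, at -1.02 (SE 0.03, adjusted p = 1.8e-18). None of these 3 overlapped between tables.

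Tpi1, Pfkp and Pfkfb2 fell with TGF-β as well, at -0.97 (SE 0.04, adjusted p = 2.5e-16), -1.03 (SE 0.04, adjusted p = 5.2e-16) and -1.13 (SE 0.09, adjusted p = 1.9e-10) on the log2 scale by edgeR. Pdk1 fell, at -0.72 (SE 0.10, adjusted p = 6.1e-07) and Pgam2 fell, at -0.90 (SE 0.25, adjusted p = 0.00367). Against that direction, Pdk2 went from 3.43, 4.33 and 3.78 CPM to 15.4, 14.8 and 14.8 CPM, a log2 fold change of 1.96 (SE 0.13, adjusted p = 1.5e-12). Aldoc rose by 1.21 (SE 0.18, adjusted p = 2.5e-06) and Eno3 by 0.64 (SE 0.12, adjusted p = 4.2e-05). Gapdh rose by 0.12 (SE 0.03, adjusted p = 0.00295) while Pgk1, the next enzyme, fell. The other 10 lower genes were Slc2a3, Hk1, Hk2, Pfkl, Pfkfb1, Pgam1, Eno1, Pkm, Pdha1 and Pdk4, with log2 fold changes from -0.54 to -0.17. Gpi1, Pfkfb4, Eno2, Ldhb and Slc16a3 were the other 5 higher genes, at 0.19 to 0.53. Of these, Pfkfb1, Eno2 and Slc16a3 lost their calls without single libraries, including TGF-β Scrambled replicate 1 for each, and Slc16a3 did so in DESeq2 and Pfkfb1 with either other filter on low counts. Endothelial markers summed to 49.2 to 54.8 CPM in untreated and 93.3 to 94.7 CPM in TGF-β Scrambled libraries. Macrophage markers summed to 56.8 to 60.8 CPM and 149.7 to 158.0 CPM, and Tnnt2 was 93.4 ± 4.14 CPM and 4.76 ± 0.245 CPM. Of 6 endothelial markers, 5 were called higher and 1 lower, and of 6 macrophage markers, 4 higher and 1 lower. Of 8 fibroblast markers, 3 were higher and 4 lower, and of 5 smooth muscle and pericyte markers, 4 were higher and 0 lower. Of all genes, 29.3% were higher and 28% lower. The part of these markers in these differences was not tested.

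Whether a siRNA effect differed between tables was tested as an interaction, called where the adjusted p did not exceed 0.05 and the effects differed by at least 1.5-fold. With IL-17 no member passed for siR-1, where 0.448% of all genes did, or for siR-2, where 0.485% did. At an unadjusted p under 0.05 there were 13 members for siR-1 and 5 for siR-2, against 2517 and 2055 of all 21219 genes, and DESeq2 called 0 members for either by the same rule. At the adjusted p alone, Hk2, Gapdh and Pgk1 passed for siR-1 and Hk2 and Slc16a1 for siR-2. For Hk2 the effect under IL-17 minus that in untreated cells was -0.36 (SE 0.06, adjusted p = 9.4e-04) for siR-1 and -0.43 (SE 0.06, adjusted p = 8.0e-05) for siR-2 by edgeR. With TGF-β, 1 member passed for siR-1, where 5.61% of all genes did, and 11 for siR-2, where 11.6% did. The tests of the 2 siRNAs share the Scrambled libraries of both tables.

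For siR-2, the TGF-β effect on Pfkl was below the untreated effect, with a difference of -1.33 (SE 0.06, adjusted p = 6.6e-14), and the difference for Aldoc was -1.34 (SE 0.25, adjusted p = 1.6e-04), by edgeR. The differences for Tpi1, Eno1 and Eno3 were -0.66 (SE 0.06, adjusted p = 2.0e-09), -0.59 (SE 0.05, adjusted p = 1.1e-09) and -0.76 (SE 0.17, adjusted p = 9.2e-04). Slc16a3 differed by -0.86 (SE 0.10, adjusted p = 2.3e-07), and the kinases Pdk1, Pdk2 and Pdk4 by -0.76 (SE 0.14, adjusted p = 1.0e-04), -0.94 (SE 0.17, adjusted p = 1.5e-04) and -0.83 (SE 0.11, adjusted p = 3.0e-06). In 9 of the 11 genes the siR-2 effect was thus lower under TGF-β, and in Pfkfb1 and Eno2, which siR-2 lowered in both tables, it was less negative, with differences of 0.72 (SE 0.23, adjusted p = 0.0211) and 0.63 (SE 0.16, adjusted p = 0.00300). The Eno1 difference lies near the fold limit and missed it without any of 9 single libraries, and the Eno2 and Pfkfb1 calls were lost without any of 4 each, among them untreated siR-2 replicate 2. For siR-1 the gene that passed was Slc2a4, at 1.64 (SE 0.54, adjusted p = 0.0336), on levels of under 1.1 CPM, and this call was lost without untreated Scrambled replicate 2 or 3, untreated siR-1 replicate 1 or 3, TGF-β Scrambled replicate 1 or 3, or TGF-β siR-1 replicate 2 or 3. The target itself was at 4.33 ± 0.296 CPM in siR-1 cells and 3.26 ± 0.428 CPM in siR-2 cells under TGF-β, and 20.4 ± 1.92 CPM in Scrambled cells. By the same interaction rule its knockdown was smaller under TGF-β than in untreated cells. Its log2 fold change after siR-2 was -3.69 untreated and -2.65 under TGF-β, a difference of 1.03 (adjusted p = 1.7e-05) by edgeR. After siR-1 these were -2.97 and -2.23, differing by 0.73 (adjusted p = 0.00113). The part of this smaller knockdown in the members' differences was not tested.

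**Figure D5:**
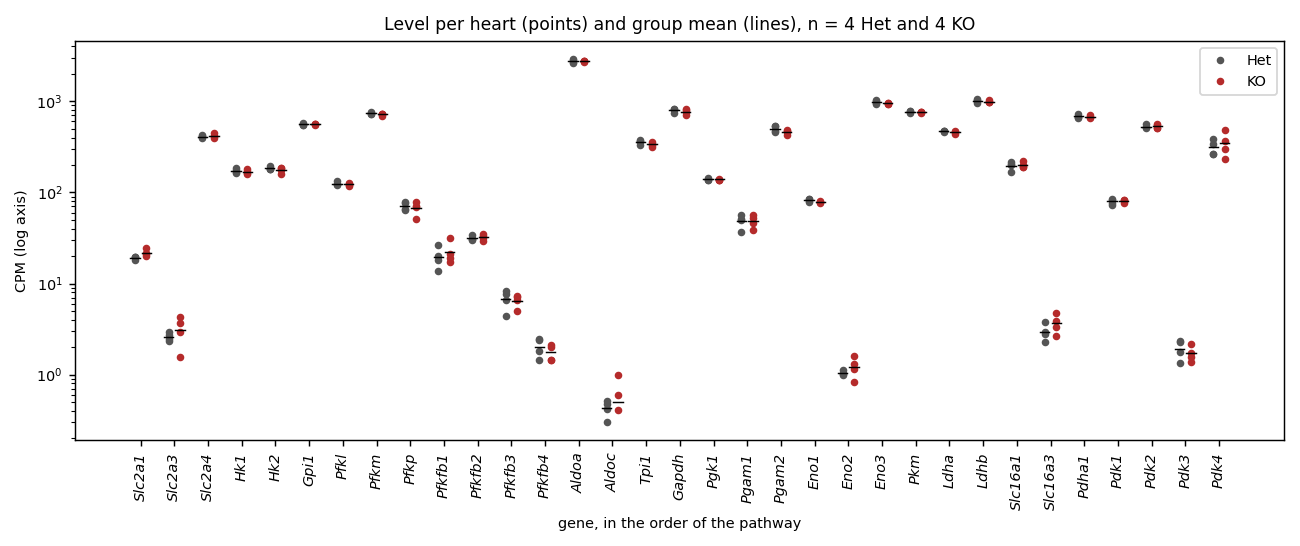
CPM per heart on a log axis (points) with the group mean (lines) for each gene in pathway order, 4 Het and 4 KO hearts. The ranges of the groups overlap in every gene but Slc2a1, a library at 0 is not drawn on the log axis, and no gene passed the test.

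In hearts, no member was called between KO and Het animals by edgeR. No member was higher, where 0% of all 16675 genes was, none was called lower, where 0% was, and none passed the stricter rule, where 0% did. At an unadjusted p under 0.05 there was 1 member, and 601 of all genes, and DESeq2 called 0 members. The members' log2 fold changes ran from -0.20 to 0.30, with a median of -0.01. The member under that unadjusted p was Slc2a1, at 19.6, 18, 19.7 and 19.5 CPM in Het and 24.4, 21.1, 21.6 and 20.04 CPM in KO hearts, with a log2 fold change of 0.18 (SE 0.07, adjusted p = 1.0). The Het and KO ranges did not overlap, but the difference failed the correction.

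The isozymes that lead in heart muscle had overlapping ranges in the 2 genotypes. Slc2a4 stood at 413, 428, 391 and 400.3 CPM in Het and 444, 413, 415 and 400.0 CPM in KO hearts. Pfkm was at 761, 744, 718 and 733 CPM and 730.5, 689.7, 729 and 729 CPM. Ldhb was at 1049, 1039, 996 and 964 CPM and 989, 973, 985 and 1023 CPM. None of the 3 separated the genotypes. Pdk4 varied most among the abundant members, at 262, 343, 389.7 and 261 CPM in Het and 232, 302, 364 and 482 CPM in KO hearts, again with overlap. The genes that the siRNAs raised in CFs were at 184 ± 7.06 CPM and 176 ± 11.7 CPM for Hk2 and 125 ± 5.95 CPM and 122 ± 3.83 CPM for Pfkl in Het and KO hearts (SD, n = 4). In these whole hearts the fibroblast markers summed to 618 to 926 CPM and the cardiomyocyte markers to 48317 to 52861 CPM, whereas the CF libraries held 12455 to 21091 CPM of the fibroblast markers. Processed copies limit some values in hearts, where the median counts of Eno1b, Pgam1-ps2 and Pgk1-rs7 reached 32.9%, 30.2% and 24.5% of those of Eno1, Pgam1 and Pgk1.

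Other genes of glucose metabolism, 51 from a list of glycogen, pentose phosphate and pyruvate enzymes and other carriers and isozymes, gave a background to the members. In untreated cells, 48 were tested. There siR-1 gave 15 higher and 12 lower, against 19.5% and 20.4% of all genes, and siR-2 24 and 11, against 24.4% and 25%. Under IL-17, 47 were tested. There siR-1 gave 16 higher and 15 lower, against 20.3% and 21.9% of all genes, and siR-2 26 and 9, against 25% and 25.6%. Under TGF-β, 48 were tested. There siR-1 gave 10 higher and 6 lower, against 11.7% and 11.4% of all genes, and siR-2 14 and 5, against 15.1% and 14.8%. Taldo1, transaldolase of the pentose phosphate pathway, rose by 1.77 (SE 0.04, adjusted p = 8.6e-15) and 2.46 (SE 0.04, adjusted p = 1.0e-16) in untreated cells by edgeR. Pygm, the muscle glycogen phosphorylase, fell, at -2.10 (SE 0.24, adjusted p = 1.7e-06) and -2.31 (SE 0.24, adjusted p = 3.2e-07). Of 19 HIF-1 targets outside glycolysis tested in untreated cells, siR-1 gave 10 higher and 6 lower and siR-2 gave 10 and 1. Under IL-17, siR-1 gave 11 higher and 4 lower, and siR-2 gave 9 higher and 1 lower. Under TGF-β, siR-1 gave 9 higher and 2 lower, and siR-2 gave 12 higher and 1 lower. The shares of all genes for these comparisons are those just given. In hearts none of the 45 other glucose genes or the 17 HIF-1 targets tested was called. Hif1a, the oxygen-regulated HIF-1 subunit, was at 199 ± 4.86 CPM in Scrambled, 255 ± 2.27 CPM in siR-1 and 276 ± 6.17 CPM in siR-2 untreated cells (SD, n = 3), which is its transcript and not its protein. The 2 HIF-1 subunit genes were called higher with each siRNA in all 3 CF tables by edgeR. The paper, by qPCR, reports no rise of the Hif1a transcript on knockdown, and the difference between the 2 measurements was not tested.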

How the data were processed

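RNA was sequenced from 27 CF samples and 8 hearts. Per the labels and the study's methods, the authors trimmed reads with Cutadapt 3.7, aligned them to GRCm38 with HISAT2 2.2.1 and assembled and quantified them with StringTie 2.1.4. Strand use, annotation release and the step to whole numbers are not given in the sources used here. The deposited CF tables hold estimated counts, given as whole numbers, in which 1 read pair is worth up to 6. The deposited heart table holds raw counts. The heart columns carry no replicate number, so hearts are numbered only as names.

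Genes were filtered with filterByExpr and tested with edgeR 4.0.16 (TMM, quasi-likelihood, robust) in R 4.3.3, 1 fit per table with all its groups and joint fits of 2 CF tables for stimuli and interactions, with Benjamini-Hochberg adjustment over all genes tested. The scripts were tested on simulated data. Each SE was obtained as |log2 fold change| over the root of the F statistic. CPM was set on 1 scale over the CF libraries and separately over hearts. CPM per kb used the longest principal transcript of the GENCODE annotation, in place of the joined exons first planned, a change made after the shares had been seen. Promoters are RefSeq windows of 250 bases. A window of 300 bases was also searched. The members and lists were chosen with earlier results of these data known. The genes named are all members, with fold changes one by one or as a range for those called against Scrambled or between tables, and by counts with examples between siRNAs, and of other lists up to 4 called genes with the largest mean change. For counting error, 3 read pairs (18 estimated counts in a CF library) served as the floor. Alternatives were DESeq2 1.42.0, RLE size factors, other filters, estimated counts divided by 6, 2 groups only, a replicate block and leaving out each library.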

Additional observations from a re-analysis of the deposited data

Results flagged for a closer look

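Of 68 sets of 4 values, 1 for each of the 34 rows in each heart group, 6 held a library far from the other 3 by Dixon's test. Chance gives this in about 1 in 20 sets, but the sets share the same 8 hearts and are not independent. Slc2a1 had a low Het heart at 18 CPM, with the others at 19.5 to 19.7. Hk2 had a high Het heart at 194.3 CPM, with the others at 179 to 181. Pfkm had a low KO heart at 689.7 CPM, with the others at 729 to 730.5. Ldha had a low Het heart at 459.8 CPM, with the others at 471 to 473. The silent Aldoa identifier, Aldoa (ENSMUSG00000114515), was above 0 in 1 heart of each group, with 0.240 CPM in the Het and 0.388 CPM in the KO heart. With the other hearts at 0, any value above 0 is flagged, so the chance rate does not apply to this identifier.

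The siRNA effect differed between TGF-β and untreated cells, by edgeR's interaction test and the fold limit, for the genes that follow, each given as the effect under TGF-β minus that in untreated cells on the log2 scale. For siR-1 it was Slc2a4, at 1.64 (SE 0.54, adjusted p = 0.0336). For siR-2 the carriers and enzymes with negative differences were Pfkl at -1.33, Aldoc at -1.34, Tpi1 at -0.66, Eno1 at -0.59, Eno3 at -0.76 and Slc16a3 at -0.86. The kinases Pdk1, Pdk2 and Pdk4 were at -0.76, -0.94 and -0.83, and the 2 positive differences were Pfkfb1 at 0.72 and Eno2 at 0.63. Each rests on 3 libraries a group, and stimulus and experiment cannot be told apart. The knockdown of the target was also smaller under TGF-β by this test, and its part in these differences was not tested.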

How the results depend on the processing

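Counts of members called kept within 1.5 times of the values above under every alternative run, with these exceptions. Members lower with IL-17 in Scrambled cells were 11 with DESeq2 and 3 with the replicate block, and members higher were 2 with the replicate block and 2 to 5 on leaving out single libraries. Members passing the siR-1 interaction with TGF-β were 2 with DESeq2, RLE size factors, at least 10 counts in every library or estimated counts divided by 6, 0 without a filter, and 0 to 2 on leaving out single libraries. Members higher with siR-2 than siR-1 under TGF-β were 0 to 1 on leaving out single libraries. The replicate block lost 12 calls of single members and gained 1, the lost ones being 7 of IL-17 (Slc2a3, Pfkp, Pfkfb3, Aldoa, Gapdh, Eno1 and Pdk4), 3 of TGF-β (Pfkfb1, Eno2 and Ldhb), and Slc2a4 in the siR-1 interaction with TGF-β and between siRNAs under TGF-β, and it moved the counts not named here by at most 2. Correlations of same-numbered libraries, as deviations from their group means, ran from -0.44 to 0.17 over 27 pairs. Those of differently numbered libraries ran from -0.18 to 0.41, the extremes of both kinds lying under TGF-β except the 0.17. With 3 libraries a group, these values cannot tell whether cultures were paired. For hearts, no paired analysis was possible because their columns carry no replicate number.

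Of the fold changes of single members, leaving out 1 library left 2957 on their side of the threshold, lost 140 calls, gained 7 and turned 19 signs, and DESeq2 left 291, lost 4 and turned 1. Signs turned only for uncalled differences near 0. Ldha with siR-1 in untreated cells was 0.0032 on the log2 scale, -0.0097 with DESeq2, -0.0034 with at least 10 counts in every library, -0.00018 with estimated counts divided by 6 and -0.015 to 0.031 without single libraries. Hk1 with siR-2 under IL-17 was 0.0011 with RLE size factors, 0.0024 without a filter and -0.031 to 0.013 without single libraries. Tpi1 with siR-2 under TGF-β was 7.8e-05 without a filter, 6.6e-05 with division by 6 and -0.032 to 0.046 without single libraries. Without single libraries, untreated Slc2a4 with siR-2 ran from -0.14 to 0.46 and Pfkfb3 with siR-1 from -0.071 to 0.017. Under IL-17 with siR-1, Eno2 ran from -0.037 to 0.083 and Pfkfb1 from -0.11 to 0.10. Under TGF-β with siR-2, Aldoc ran from -0.072 to 0.19 and Pdk1 from -0.22 to 0.00017. The cause was not tested.

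Lengths from joined exons, an alternative chosen after seeing the data, gave Hk1 39.8% of hexokinase in Het hearts in place of 57.4%, and in CFs Pfkp 29.5% and Pfkl 39.4% of phosphofructokinase in place of 47.2% and 34.9%. Pfkm then held 31.0% in place of 17.8%, and Pfkfb1 45.8% of the Pfkfb genes in hearts in place of 54.5%, so these orders rest on the length used. With windows of 300 bases, 74.0% of member promoters, 43.8% of all promoters and 58.2% of those of tested genes held ACGTG or GCGTG.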
